A study of Homo sapiens with 2 samples.

Results

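The 48 genes described here encode the machinery with which RNA polymerase II starts and elongates messenger RNA. They were chosen by symbol and function, as 12 core subunits of the polymerase, 14 general transcription factors, 12 factors of promoter-proximal pausing and its release, and 10 factors of later elongation and chromatin passage. All 48 symbols were among the 19096 in the deposited tables, and 47 were expressed, with a mean RPKM (the read number per kilobase, relative to library size) of at least 1 over the 2 libraries, as were 10272 genes in all. The cells were P493-6, a human B cell line labelled as B cell lymphoma, grown in medium with FBS, in which tetracycline silences a c-Myc transgene. The low c-Myc library was made at 0 h and the high c-Myc library at 24 h of release from that repression, and both populations carry the transgene. They are called before and after induction below. Synthetic RNAs were added to each sample according to cell number. With 1 library per group there is no replicate check and no test between the conditions, and the values describe these libraries alone.

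RNA polymerase II is built from a set of core subunits, several of which it shares with RNA polymerases I and III. The general factors TFIIA, TFIIB, TFIIE, TFIIF and TFIIH place it on promoters, and the kinase module of TFIIH (CDK7, cyclin H and MNAT1) phosphorylates the C-terminal tail of the largest subunit. Shortly after starting, the polymerase pauses under the factors DSIF and NELF, and P-TEFb, the kinase CDK9 with a cyclin T, releases it. P-TEFb is held inactive in the 7SK ribonucleoprotein particle and is recruited by BET bromodomain proteins or within the super elongation complex. c-Myc is a transcription factor known to bind active promoters and to act on pause release.

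Depth, read from the spacing of low RPKM values, was about 103000000 reads before and 105000000 after induction. The MYC transcript itself stood at an RPKM of 836 and 2358, a 2.82-fold difference. The 46 synthetic RNAs that reached an RPKM of 1 in each library had a median log2 ratio of high over low of -2.56 (SD 0.54 over the synthetic RNAs). Synthetic RNAs held 17.5% of the summed RPKM before and 2.75% after induction. The part of this difference in the deposited ratios of the transcripts was not tested. All 8 B cell markers examined, CD79A and PAX5 among them, reached an RPKM of 1 in each library, with a summed RPKM of 3267 and 1259. Of 5 myeloid markers 3 did so in each library (summed RPKM 151 and 35.6), of 4 T cell markers 3 did before and 1 after induction (12.5 and 1.96), of 3 NK cell markers 2 and 1 (10.6 and 5.20), and of 4 fibroblast and epithelial markers 1 and 2 (8.58 and 10.3). The T cell marker CD3D and the 4 erythroid and platelet markers were at 0. The part of these markers in the results below was not tested. In bulk RNA, fewer cells of a type and less RNA per cell cannot be told apart.

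On the deposited RPKM scale the members past 2-fold were few. Of the core subunits 6 were higher after induction, 2 pause-release factors were lower, and most other members lay near the middle of all genes. The log2 ratio of a gene, after over before induction, was taken on log2(RPKM + 0.5), and it was called higher or lower at 1 or -1, that is at least 2-fold. Of the 47 expressed members, 8 (17.0%) were at least 2-fold higher, where 24.9% of all expressed genes were, and 2 (4.26%) at least 2-fold lower, where 9.74% of all expressed genes were. The other 37 lay between. The median log2 ratio of the members was 0.22, as was that of all expressed genes (0.22), and it was 0.0039 after centring on the median of all expressed genes, -0.08 when both libraries were scaled to equal RPKM sums over the transcripts and -0.15 after quantile normalization. Under these 3 scalings 7 members were higher and 3 lower, and 9, 13 and 15 members, none of them past 2-fold as deposited, had the other sign. Over all expressed genes 2554 were higher and 1001 lower as deposited, 2036 and 1516 after centring, 1867 and 1642 with equal RPKM sums and 1777 and 1768 after quantile normalization.

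The members were grouped in 4 classes. Of all expressed genes 24.9% were higher and 9.74% lower, with a median log2 ratio of 0.22. Of the 12 core subunits 6 were higher and none lower. Their median of 1.12 falls in a gap, since 6 subunits had log2 ratios up to 0.42 and the other 6 from 1.83. The 6 higher ones had a transcript GC content of at least 55%, where 42.6% of all expressed genes were higher. None of the 13 expressed general factors was higher or lower, and their median of 0.10 was -0.12 after centring, -0.18 with equal RPKM sums and -0.07 after quantile normalization. Of the 12 pause-release factors 1 was higher and 2 were lower, with a median of -0.15. After a correction for transcript GC content it was 0.0079, where the median of all expressed genes was 0.17. Of the 10 elongation and chromatin factors 1 was higher and none was lower, and their median of 0.38 was -0.0063 after quantile normalization. The genes were not drawn at random and no test between the classes was made.

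**Figure D1:**
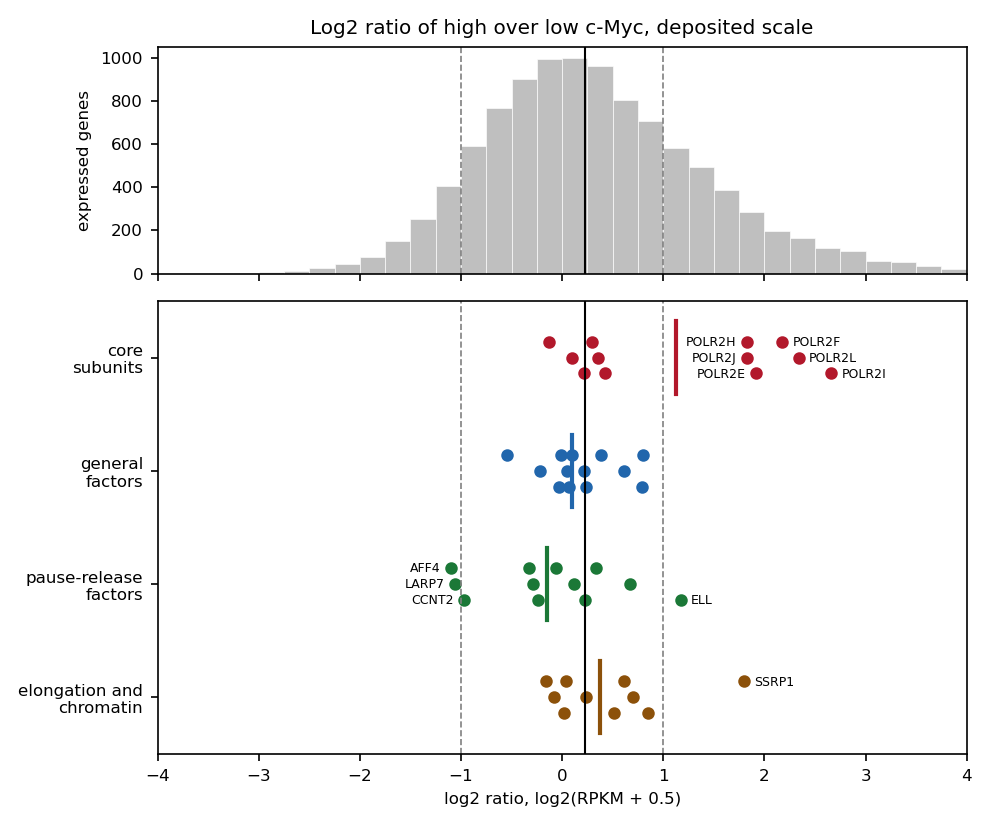
Log2 ratio, after over before induction (high over low c-Myc), on the deposited scale, as log2(RPKM + 0.5). The upper panel counts all 10272 expressed genes (axis from -4 to 4) and the lower one shows each of the 47 expressed members by class, with thick bars at class medians, a black line at the median of all expressed genes and dashed lines at 1 and -1. The 6 labelled core subunits stand apart from the other 6, and AFF4 and LARP7 are the members past -1.

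Promoter sequences show 2 members whose upstream region holds the sequence CACGTG, the canonical E-box recognised by c-Myc with its partner MAX, and 1 member whose region does not. The sequence reads the same on both strands. RefSeq promoter windows on GRCh38.p14, from 250 bases before to 50 after an annotated start, were matched by symbol for 39 of the 47 expressed members. The motif was in at least 1 window of 7 of them (17.9%), against 13.4% of the 7717 expressed genes with a window and 7.26% of all 35116 windows. Of the 6 at least 2-fold higher members with a window none held it, and of the 2 lower ones AFF4 did. Across all expressed genes with a window, 18.3% of those at least 2-fold higher held it and 11.8% of the others, with no test made. A match is a description of the letters and not of binding. The 250 bases before the start are given 5′ to 3′ for POLR2L, the most abundant member after induction (chr11:842530-842779, minus strand), for AFF4, the member with the lowest ratio (chr5:132963635-132963884, minus strand), and for SUPT16H (chr14:21384020-21384269, minus strand), with CACGTG in capitals.
POLR2L: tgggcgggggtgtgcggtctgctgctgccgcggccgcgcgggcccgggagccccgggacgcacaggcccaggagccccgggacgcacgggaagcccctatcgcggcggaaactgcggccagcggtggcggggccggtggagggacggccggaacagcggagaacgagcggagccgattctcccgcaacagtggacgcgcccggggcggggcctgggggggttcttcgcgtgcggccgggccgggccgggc
AFF4: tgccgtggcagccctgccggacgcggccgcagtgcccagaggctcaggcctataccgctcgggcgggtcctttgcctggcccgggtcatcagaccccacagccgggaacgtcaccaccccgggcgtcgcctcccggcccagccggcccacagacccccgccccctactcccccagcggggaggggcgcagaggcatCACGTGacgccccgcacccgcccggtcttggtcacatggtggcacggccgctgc
SUPT16H: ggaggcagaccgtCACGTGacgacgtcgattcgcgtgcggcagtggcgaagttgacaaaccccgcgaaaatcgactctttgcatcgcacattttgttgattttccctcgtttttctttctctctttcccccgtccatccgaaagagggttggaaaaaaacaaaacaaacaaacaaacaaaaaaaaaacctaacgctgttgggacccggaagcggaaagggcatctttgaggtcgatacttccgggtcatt
The motif begins 54 bases before the start in AFF4 and 237 bases before it in SUPT16H, and it is not in these letters for POLR2L. The other members with the motif were CCNT1, CDK7, GTF2A1, GTF2B and GTF2H1, none of them past 2-fold.

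Among the core subunits the difference lay in 6 subunits, and the other 6, the catalytic POLR2A and POLR2B among them, were close in both libraries. POLR2A (NM_000937), the largest subunit, which carries the C-terminal tail, stood at an RPKM of 38.9 before and 49.9 after induction, a log2 ratio of 0.35. POLR2B, which completes the active site with POLR2A, stood at 18.2 and 19.6, a log2 ratio of 0.10. POLR2C, part of the assembly platform of the enzyme, had 14.3 and 19.3 (0.42). The stalk subunits POLR2D and POLR2G, which bind the emerging RNA, had 13.0 and 15.2 (0.22) and 16.7 and 15.2 (-0.13). Here and below the first value is the low and the second the high c-Myc library. These 5 subunits thus lay within 1.35-fold between the libraries in either direction.

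Of the 5 subunits shared with RNA polymerases I and III, 4 were at least 2-fold higher, where 24.9% of all expressed genes were. These 4 had a transcript GC content of at least 55%, where 42.6% of all expressed genes were higher. POLR2K, the one not called, had a GC content of 36.6%, and 15.5% of expressed genes under 55% were higher. POLR2L (NM_021128) stood at 47.3 and 241, a 5.10-fold difference (95% counting interval 4.93 to 5.26). POLR2E (NM_002695) had 41.1 and 157, 3.82-fold (3.74 to 3.90). POLR2F (NM_021974) had 3.24 and 16.4, 5.06-fold (4.66 to 5.49), and was the least abundant core subunit before induction. POLR2H (NM_006232) had 10.1 and 36.9, 3.67-fold (3.49 to 3.87). POLR2K, the fifth shared subunit, had 10.1 and 12.4, 1.24-fold (1.14 to 1.34). It was inside 2-fold, like POLR2A, POLR2B, POLR2C, POLR2D and POLR2G. After the GC correction its log2 ratio was 0.89, against 0.37 to 0.44 for POLR2B, POLR2C and POLR2D and -0.16 for POLR2G. These intervals are exact binomial intervals on approximate reads and cover counting error only, with no part for differences between cultures or library preparations.

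Of the 7 subunits not shared with the other polymerases, only POLR2I and POLR2J were called. Both were higher, where 24.9% of all expressed genes were. POLR2I (NM_006233), a zinc-binding subunit involved in start site choice and proofreading, stood at 10.4 and 68.4, 6.59-fold (6.16 to 7.05), the highest ratio of all members, at percentile 96.4 of the expressed genes. POLR2J (NM_006234), which pairs with POLR2C, stood at 20.8 and 75.3, 3.62-fold (3.45 to 3.81). Its near-identical relatives POLR2J2 and POLR2J3 had RPKM values of 2.22 and 2.63 and of 2.03 and 2.54. The sources used here do not say how reads were split between the copies. All 6 higher subunits had a log2 ratio above 1 under the 10 alternative settings, where POLR2I ranged from 2.17 to 2.71 and POLR2J, with the smallest value, from 1.27 to 1.85.

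Levels of the subunits, which are per length, were further apart after induction, as were those of the other classes. The SD of log2 RPKM over the 12 subunits was 1.08 before and 1.43 after it. It was 0.93 and 1.17 for general, 1.70 and 1.96 for pause-release and 1.07 and 1.42 for elongation and chromatin factors. Relative to POLR2A, POLR2L stood at 1.22 and 4.83, POLR2E at 1.06 and 3.15, and POLR2I at 0.27 and 1.37. POLR2F stood at 0.083 and 0.33 of POLR2A. Ranked by RPKM among the 10272 expressed genes, POLR2L stood at position 868 before and 138 after induction, POLR2E at 1030 and 274, and POLR2I at 4125 and 925. POLR2A stood at 1093 and 1400. The summed RPKM of the 12 subunits was 244 and 727, while that of the 12 pause-release factors was 322 and 326.

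**Figure D2:**
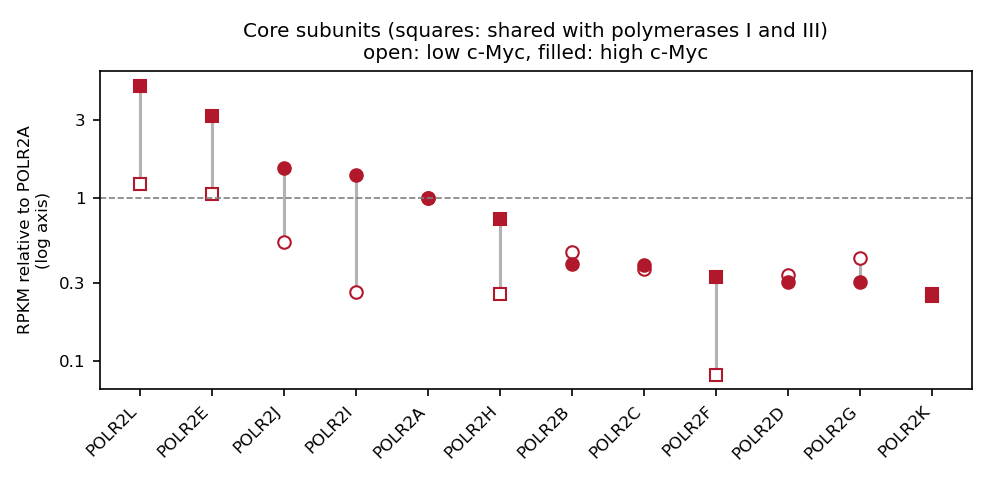
RPKM of the 12 core subunits relative to POLR2A in the same library, on a log axis. Open symbols are the low and filled symbols the high c-Myc library, and squares mark the 5 subunits shared with RNA polymerases I and III. POLR2L, POLR2E, POLR2J, POLR2I, POLR2H and POLR2F have their filled symbols to the side of higher ratios.

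The general factors had lower and more even levels, and no member passed 2-fold. GTF2F1, the large subunit of TFIIF, which escorts the polymerase to the promoter, was the most abundant, at 41.7 and 72.7 (log2 ratio 0.80). Its partner GTF2F2 had 6.83 and 10.7 (0.61), a value that was 1.09 after the GC correction. GTF2H4, a subunit of the TFIIH core, had 13.6 and 23.9 (0.79), while GTF2H1 had 6.82 and 8.02 (0.22) and GTF2H3 had 4.79 and 4.97 (0.05). GTF2B, the factor that joins the polymerase to the TATA-binding protein complex, had 8.57 and 7.29 (-0.22). In TFIIA, which steadies the TATA-binding protein on DNA, GTF2A1 had 4.88 and 5.81 (0.23) and GTF2A2 had 11.0 and 10.9 (-0.01). In TFIIE, which brings in TFIIH, GTF2E1 had 4.12 and 4.44 (0.10) and GTF2E2 had 14.9 and 15.7 (0.07). The signs of these small values depended on the scaling.

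The kinase module of TFIIH held no called gene. CDK7, its kinase, stood at 5.03 and 3.28 and had the lowest log2 ratio of the general factors, at -0.55. CCNH, the cyclin, had 4.88 and 6.54 (0.39), and MNAT1, which stabilises the module, had 7.73 and 7.55 (-0.03, and 0.56 after the GC correction). GTF2H2, a further TFIIH core subunit, was listed at an RPKM of 0.035 and 0.039 in its highest row, or about 7 and 9 reads, and was left out as not expressed. Its copies GTF2H2C and GTF2H2D were listed at 0.014 and 0.068 and at 0.038 and 0.042. The sources used here do not say how reads that match several copies were treated, so these values do not show that GTF2H2 is off.

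Of the other TFIIH genes, ERCC2, a helicase of the core, stood at 13.9 and 35.3, with a log2 ratio of 1.31. That value was 0.80 after the GC correction, 0.997 with equal RPKM sums and 0.78 after quantile normalization. The other helicase, ERCC3, had 16.6 and 16.1 (-0.04), and GTF2H5 was below the expression limit, at 0.74 and 0.51.

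**Figure D3:**
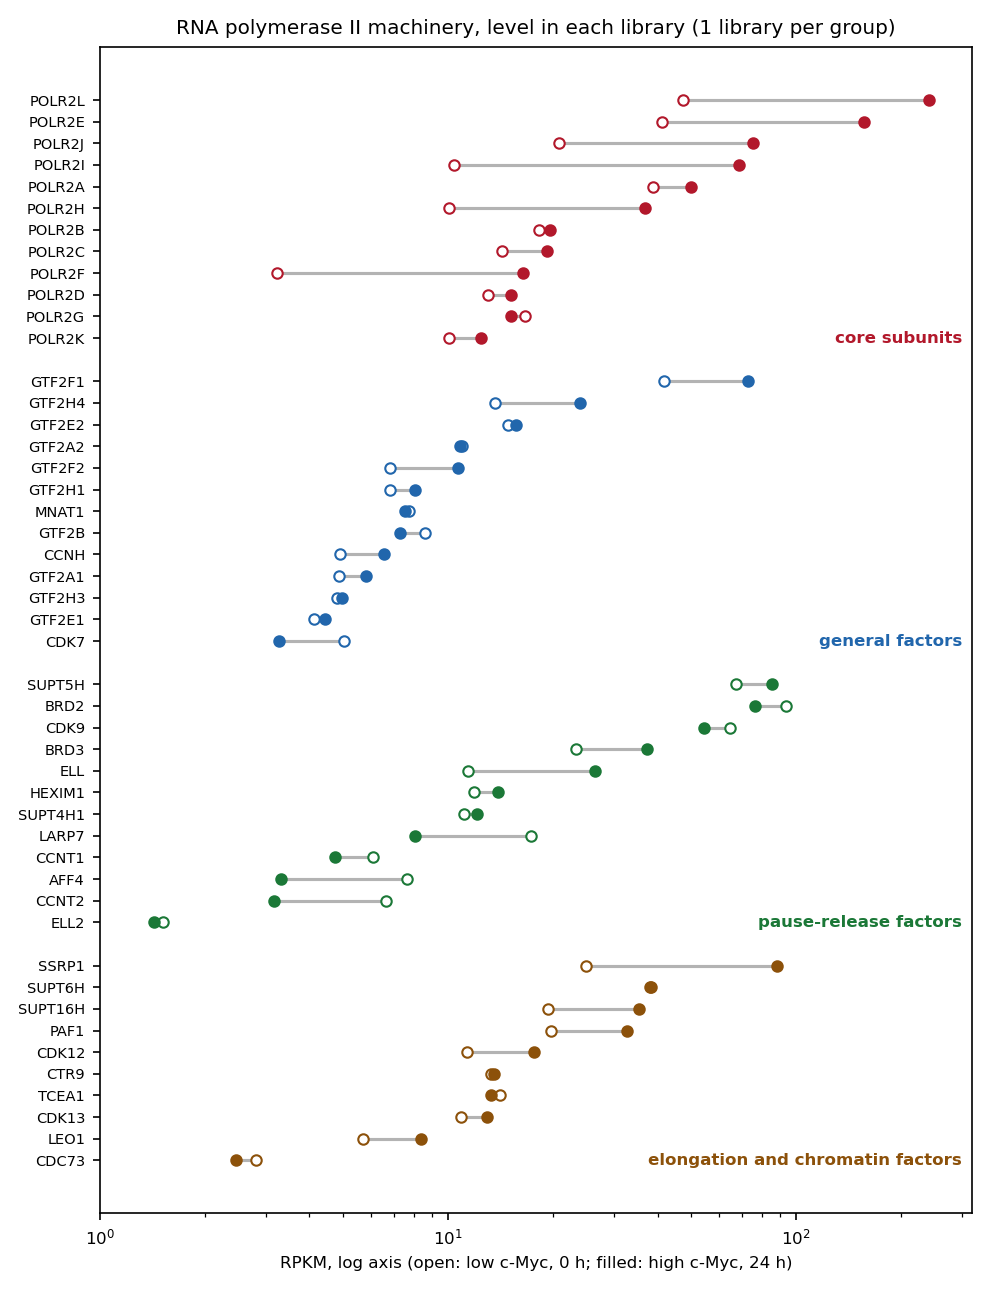
RPKM of the 47 expressed members in each library on a log axis, by class and ordered by the level in the high c-Myc library. Open circles are the low and filled circles the high c-Myc library, 1 library each. POLR2L reaches 241 after induction. In 14 members, LARP7, AFF4 and CCNT2 among them, the filled circle lies to the left of the open one.

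The pause-release factors lay on both sides of 0. All 3 genes of P-TEFb had ratios below 0 on the deposited scale. CDK9, the kinase, was among the most abundant members, at 64.5 and 54.5 (log2 ratio -0.24). Its cyclin CCNT1 had 6.08 and 4.75 (-0.32), a ratio that was 0.01 after the GC correction. CCNT2 (NM_001241), the alternative cyclin, had 6.66 and 3.16, 2.11-fold lower (counting interval 1.98 to 2.25), and its log2 ratio of -0.97 with the pseudocount lay just inside the limit of -1. With a pseudocount of 0.1, with its transcripts summed (-1.01) and under the 3 scalings it was past that limit. After the GC correction it was at -0.46.

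The factors that hold or recruit P-TEFb differed among themselves. LARP7 (NM_015454), which protects the 7SK RNA, stood at 17.4 and 8.05, 2.16-fold lower (2.04 to 2.28), with a log2 ratio of -1.06. HEXIM1, the inhibitor that blocks CDK9 within the particle, had 11.9 and 13.9 (0.22), while its paralog HEXIM2 had 4.26 and 8.27 (0.88) and MEPCE, the 7SK capping enzyme, 26.8 and 45.8 (0.76). After the GC correction HEXIM1 was at 0.27, HEXIM2 at 0.26 and MEPCE at 0.44. The RPKM of CDK9 was 5.44 times that of HEXIM1 before and 3.91 times after induction. It was 3.71 and 6.77 times that of LARP7. By rank among the expressed genes LARP7 stood at position 2708 before and 5543 after induction, and CDK9 at 572 and 1271.

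Among the BET proteins, which bind acetylated histones, BRD2 stood at 93.4 and 76.4 (-0.29), the highest level of any member before induction. BRD3 had 23.3 and 37.2 (0.67). The RPKM of BRD2 was thus 4.01 times that of BRD3 before and 2.05 times after induction. The other BRD2 rows above 0 had 78.8 to 83.8 before and 75.4 to 79.5 after induction. With those rows the ratio before induction was smaller.

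In the super elongation complex the scaffold and 1 of its elongation factors lay on opposite sides. AFF4 (NM_014423), the scaffold, stood at 7.63 and 3.31, 2.31-fold lower (2.21 to 2.40), with a log2 ratio of -1.09, the lowest of all members. ELL (NM_006532), an elongation factor of the complex, had 11.5 and 26.4, 2.31-fold higher (2.23 to 2.39), with a log2 ratio of 1.17. Its paralog ELL2 was weakly expressed, at 1.52 and 1.43 (-0.06). Of the 9 measured genes of the complex 2 were higher and 3 lower, where 24.9% and 9.74% of all expressed genes were. The median was -0.34, and 0.16 after the GC correction. Besides the members the called genes were MLLT1 at 32.9 and 89.5 (1.43), ELL3 at 6.38 and 2.61 (-1.15) and EAF2 at 9.26 and 4.04 (-1.10).

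These calls depended on the GC content of the transcripts. After the GC correction the log2 ratio was -0.59 for LARP7, -0.77 for AFF4, 0.68 for ELL, 0.43 for MLLT1 and -0.67 for EAF2, all inside the limits, and -1.24 for ELL3. ELL was also inside them after centring (0.95), with equal RPKM sums (0.86) and after quantile normalization (0.71). MLLT1 was inside them after quantile normalization (0.79).

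The pausing factors themselves differed between DSIF and NELF. SUPT5H, the large subunit of DSIF, stood at 67.3 and 85.1 (0.34), and SUPT4H1, the small one, at 11.1 and 12.1 (0.12). Of the 4 NELF genes 3 were at least 2-fold higher, where 24.9% of all expressed genes were, and the median was 1.29. With equal RPKM sums or after quantile normalization 1 of them was. The 3 genes called as deposited had a transcript GC content of at least 55%, where 42.6% of all expressed genes were higher. NELFA (listed as WHSC2) had 11.0 and 57.4 (2.33), NELFB (COBRA1) 63.5 and 157 (1.30), NELFE (RDBP) 20.4 and 50.4 (1.29) and NELFCD (TH1L) 20.6 and 41.7, just inside the limit at 0.997. NELFA stayed past 2-fold under each scaling tried, with a lowest log2 ratio of 1.72 after the GC correction. NELFB had 0.15 and NELFE 1.02 after that correction, and with equal RPKM sums both lay under 1, at 0.98 and 0.97.

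**Figure D4:**
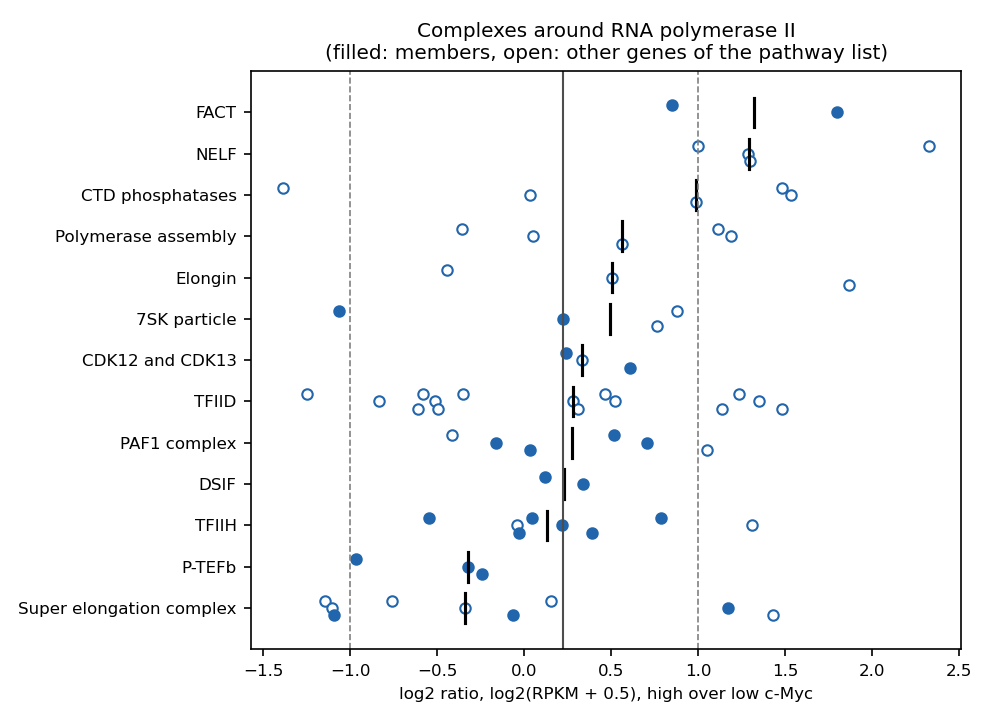
Log2 ratio, after over before induction, as log2(RPKM + 0.5), for the expressed genes of 13 complexes or groups around RNA polymerase II, ordered by median. Filled circles are members and open circles other genes of the pathway list, black bars are medians, dashed lines mark 1 and -1 and the solid line is the median of all expressed genes. FACT and NELF have the highest medians (1.32 and 1.29), P-TEFb (-0.32) and the super elongation complex (-0.34, and 0.16 after the GC correction) the lowest.

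Among the elongation and chromatin factors the histone chaperone FACT had the highest values. SSRP1 (NM_003146), its small subunit, stood at 24.9 and 87.8, 3.53-fold higher (3.44 to 3.62), and SUPT16H, the large one, at 19.4 and 35.3, 1.82-fold (1.78 to 1.87). By rank among the expressed genes SSRP1 stood at position 1827 before and 661 after induction. SSRP1 thus had an RPKM 1.29 times that of SUPT16H before and 2.49 times after induction. The log2 ratio of SUPT16H was 0.85 as deposited and 1.05 after the GC correction. SUPT6H, another histone chaperone that travels with the polymerase, had 38.0 and 38.4 (0.01).

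The PAF1 complex, which links the elongating polymerase to histone modification, held 1 higher and no lower gene among its 6. The shares over all expressed genes were 24.9% and 9.74%. PAF1 stood at 19.8 and 32.6 (0.70), LEO1 at 5.70 and 8.36 (0.51), CTR9 at 13.3 and 13.6 (0.03) and CDC73 at 2.81 and 2.46 (-0.16, and 0.54 after the GC correction). Of its genes outside the members, WDR61 had 8.74 and 18.7 (1.05) and RTF1 had 13.7 and 10.2 (-0.42). The call of WDR61 was lost after centring (0.83), with equal RPKM sums (0.74) and after quantile normalization (0.66). It was kept after the GC correction (1.10).

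The kinases of later elongation and TFIIS lay inside 2-fold. CDK12 stood at 11.4 and 17.6 (0.61), CDK13 at 10.9 and 13.0 (0.24) and their cyclin CCNK at 26.4 and 33.4 (0.33). TCEA1, the TFIIS factor that rescues stalled polymerases, had 14.1 and 13.3 (-0.08).

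Across the wider pathway list, 63 of 66 genes outside the members were expressed, of which 19 (30.2%) were at least 2-fold higher and 4 (6.35%) lower, where 24.9% and 9.74% of all expressed genes were. The median was 0.47 against 0.22 for all expressed genes. The counts depended on the scaling, with 14 higher and 5 lower after centring, 9 and 7 with equal RPKM sums, 7 and 8 after quantile normalization and 13 and 3 after the GC correction. TFIID, which reads the promoter, had 4 higher and 1 lower gene among 15, with a median of 0.28 that was -0.02 with equal RPKM sums and -0.03 after quantile normalization. There were 3 higher and 2 lower after centring, 2 and 2 with equal RPKM sums and 2 and 3 after quantile normalization. TBP, its TATA-binding subunit, stood at 3.86 and 5.76 (0.52), while TAF4 (3.88 and 11.7), TAF4B (3.19 and 8.91), TAF5 (0.64 and 2.02) and TAF6 (17.4 and 41.6) were higher and TAF13 (8.28 and 3.19) lower. Their log2 ratios were 1.48, 1.35, 1.14, 1.23 and -1.25, and after the GC correction TAF6 (0.72) and TAF13 (-0.69) were inside the limits and TAF10 (56.0 and 37.3) was past them, at -1.69. TAF5, with an RPKM under 1 before induction, passed the expression filter only through its level after induction, which favours a higher call. TAF5 was inside the limits under the 3 scalings (0.92 after centring, 0.89 with equal RPKM sums and 0.97 after quantile normalization), as was TAF6 under the latter pair (0.92 and 0.69). TAF7 (68.3 and 38.1, -0.83) was past them under the 3 scalings, at -1.05, -1.15 and -1.42 in the same order.

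Transcript GC content moved with the ratios of the members. The 8 higher members had a GC content of 53.1% to 60.1% and the 2 lower ones of 38.7% and 41.1%, against a median of 46.5% over the 46 members with a value and 50.3% over all expressed genes. Spearman's rho between GC content and log2 ratio was 0.67 over those members and 0.41 over 9948 expressed genes, which share the 2 libraries and are not independent replicates. Above a GC content of 55%, a value chosen after seeing the data, 7 of 12 members were at least 2-fold higher, where 42.6% of all expressed genes were. Below it 1 of 34 was, where 15.5% of all expressed genes were. Subtracting the trend over GC content left 9 of 46 members higher (20.3% of all expressed genes were) and none lower (9.97%). The 6 core subunits and SSRP1 remained among the 9, with SUPT16H and GTF2F2 added and ELL lost. POLR2A had no GC value.

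**Figure D5:**
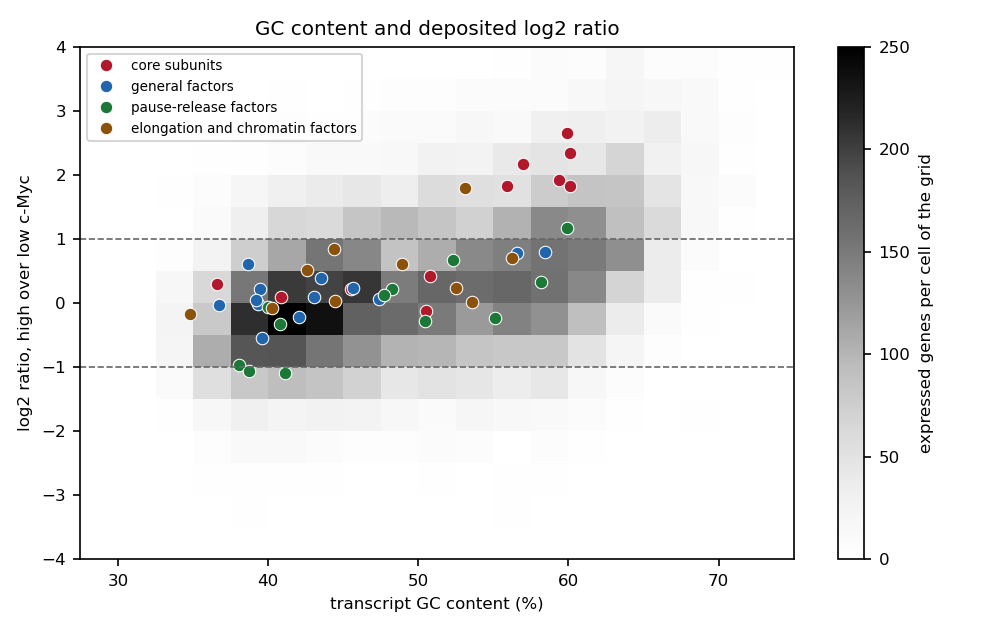
Transcript GC content (%) against the log2 ratio, after over before induction, with all expressed genes as a grey grid (darker for more genes) and 46 members as coloured points by class. The 6 higher core subunits lie at a GC content of 55.9% to 60.1%, and the lower members AFF4 and LARP7 near 40%.

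Per cell, with the median ratio of the synthetic RNAs subtracted, all 47 expressed members were at least 2-fold higher after induction, where 97.1% of all expressed genes were, and none was lower, where 0.0876% were, so that the count says nothing particular about them. The median per-cell log2 ratio was 2.78 (a 6.88-fold difference), as it was over all expressed genes (2.78). The members ranged from 1.46 for AFF4 (2.76-fold) to 5.22 for POLR2I (37.3-fold). POLR2A had a 7.52-fold, CDK9 a 4.98-fold, LARP7 a 2.82-fold and POLR2L a 29.7-fold higher level per cell. These folds include the pseudocount, and they rest on a single ratio of synthetic RNAs per pair of libraries, whose spread over the synthetic RNAs (SD 0.54) is wider than the counting intervals of single members. In the column the authors renormalized to the synthetic RNAs, 46 of the 47 members were at least 2-fold higher and AFF4 had a log2 ratio of 0.91.

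The choice of transcript row had little bearing on most of these values. The members held 78 rows with 64 accessions, of which 13 rows were at 0 in both libraries. For the 12 expressed members with several accessions above 0, the log2 ratios of the accessions differed by at most 0.22, in BRD2, where they ran from -0.29 to -0.06. The BRD2 row used was the one at -0.29, and its other rows above 0 lay at -0.07 to -0.06. Summing the accessions of a gene put CCNT2 at -1.01, past the limit, and MNAT1 at 0.005, with the other sign. Pseudogenes named after 12 of the members, among them POLR2L, LARP7, TCEA1 and SUPT16H, are annotated in GENCODE release 29, and reads of such copies cannot be told apart here, nor can those of overlapping or antisense genes.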

How the data were processed

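Poly(A) RNA of 2 samples, 1 per group, was sequenced. Per the labels' protocols, synthetic RNAs were added by cell number, poly(A) RNA was selected, and strand-marked (dUTP) libraries were amplified by PCR, so that reads can be copies of one molecule. Per the submitters' processing notes, Bowtie (no version given) and the build hg18 were used. What was counted, with which filters and use of strand, was not given in the sources used here. The authors deposited, per the file headers, RPKM values for RefSeq transcripts and a column renormalized to the synthetic RNAs, used only as an alternative.

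For each symbol the row of highest mean RPKM was used. Genes with a mean RPKM of at least 1 were kept. Ratios used log2(RPKM + 0.5), and calls were made at 1 or -1. On the deposited scale this pseudocount understates differences of low genes. Per cell it moves their ratios toward the shift taken from the synthetic RNAs. Reads were approximated from RPKM, transcript lengths of GENCODE release 29 paired by accession, and depth: of 3261 and 2344 transcripts with up to 20 reads, 48.8% and 46.7% lay within 0.05 of a whole number (10% by chance). Exact binomial intervals (95%) cover counting error only. GC correction subtracted a lowess trend (fraction 0.3) over 9948 expressed genes with a GC value (96.8%) and added back their median. The members, lists and settings were chosen with earlier results of these data known. All members were named; of a list of 66 other pathway genes, some chosen by role and those past 2-fold were, and an item withheld for evaluation is not reported here. TAF7, TAF10, SSU72, CTDSP1, ELOA, ELOC, RPAP2, RPAP3, GPN1, PCF11 and XRN2 were named after their values were seen. Computation used Python 3.11.15 with statsmodels 0.14.6, scipy 1.17.1, numpy 2.4.6, pandas 2.3.3 and matplotlib 3.10.9, and the procedure was tested on simulated data. Alternatives were 2 other pseudocounts, 2 filters, 2 ways to combine rows, 3 scalings, the GC correction and 3 per-cell references.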

Additional observations from a re-analysis of the deposited data

How the results depend on the processing

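The counts of higher members stayed within 1.5 times under all 10 settings tried on the deposited scale (7 to 9 against 8) and per cell (41 to 48 against 47, where 41 were left by a mean RPKM of at least 5). The per-cell count of 48 came without a filter on low values and includes GTF2H2. The count of lower members was 2 or 3, and 0 after the GC correction. The class medians moved with the scaling. After the GC correction the median log2 ratio was 0.43 for all members, 1.31 for core subunits, 0.44 for general factors, 0.0079 for pause-release factors and 0.52 for elongation and chromatin factors. After centring they were 0.0039, 0.90, -0.12, -0.37 and 0.16 in the same order, with equal RPKM sums -0.077, 0.81, -0.18, -0.42 and 0.076, and after quantile normalization -0.15, 0.60, -0.070, -0.40 and -0.0063. A mean RPKM of at least 5 gave 0.23 for general, -0.061 for pause-release and 0.51 for elongation and chromatin factors, with fewer genes in each. The per-cell median was 2.34 in the column the authors renormalized, and the cause was not tested. The median of all expressed genes moved as well. It was 0.22 as deposited, 0.17 after the GC correction, -0.07 with equal RPKM sums and -0.09 after quantile normalization. Of the log2 ratios of single members under these settings, 272 lay within the counting error of the deposited value and 191 beyond it (with those of POLR2A, which has no counting interval), and no member past 2-fold changed sign. No paired analysis was possible because each group has 1 library, and leaving out a replicate could not be run for the same reason. Depth leaves GTF2H2, at 7 and 9 reads, without a usable ratio.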

Other observations

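Genes that build RNA polymerase II, act on its tail or end transcription also differed among themselves. Of all expressed genes 24.9% were at least 2-fold higher and 9.74% lower. Of 5 genes of polymerase assembly and nuclear import, RPAP1 (RPKM 7.82 in the low and 18.5 in the high c-Myc library) and the GTPase GPN3 (6.91 and 15.5) were at least 2-fold higher, with log2 ratios of 1.19 and 1.12 that were 0.97 and 0.89 after centring. RPAP2 (0.05), RPAP3 (-0.36) and GPN1 (0.56) lay between. Of 5 phosphatase genes of the C-terminal tail, CTDP1 stood at 17.4 and 51.4 (1.53) and CTDSPL at 0.45 and 2.14 (1.48), while CTDSP2 stood at 43.2 and 16.2 (-1.38). SSU72 was just inside the limit at 32.3 and 64.6 (0.99) and CTDSP1 had 53.5 and 54.7 (0.03). CTDSPL, with an RPKM under 1 in the low c-Myc library, passed the expression filter only through the high one, which favours a higher call. CTDSP2 was at least 2-fold lower under the 3 scalings and at -1.49 after the GC correction, where CTDP1 was at 0.98 (and at 0.96 after quantile normalization).

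The tail-binding protein RPRD1B had 4.39 and 12.7 (1.43), TTF2, which releases RNA polymerase II in mitosis, 4.49 and 11.9 (1.32), and TCEA3, a relative of TCEA1, 6.03 and 15.3 (1.27). ELOB (listed as TCEB2), a subunit of elongin, stood at 33.0 and 122 (1.87), against 18.2 and 13.3 (-0.44) for its elongation subunit ELOA (TCEB3) and 0.996 and 1.62 (0.50) for ELOC (TCEB1). TAF15, an RNA-binding protein associated with TFIID, had 67.1 and 156 (1.21). ELOB was at least 2-fold higher under the 3 scalings and after the GC correction, with a lowest log2 ratio of 1.27, while TAF15 was at 0.99 after centring. TCEA3 was at 0.96 with equal RPKM sums and after quantile normalization. The termination factors PCF11 (0.56) and XRN2 (-0.11) lay between.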
